A study of Homo sapiens with 4 samples.

Results

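The genes of DNA methylation considered here are the methyltransferases DNMT1, DNMT3A and DNMT3B, their partners UHRF1 and UHRF2, the dioxygenases TET1, TET2 and TET3, the glycosylase MBD4 and the reader MBD2. They were listed by symbol, and a new MBD-seq peak was assigned to a gene if it lay within 1000 bp of any annotated start site or inside the gene body (GENCODE release 44 lifted to hg19). These 10 of 19881 protein-coding genes took 13 of the 12864 new peaks. The peaks belong to HEK293 cells, a human embryonic kidney cell line, that were transiently transfected with dCas9-SunTag, with Ab-3A3L (WT) and with an sgRNA for the ISG15 CpG island, and were sorted after 3 days for cells carrying every plasmid. Ab-3A3L is an antibody fragment fused to the catalytic part of wild type DNMT3A and the C-terminal part of DNMT3L. New means that the authors called the peak against untreated HEK293 cells, which had received no plasmid. Libraries of untreated cells and of cells with the K844E or R887E variant of DNMT3A exist with 1 library each, but their signal was not analysed here. With 1 library per condition replicate error is unknown for every value, and the intervals cover counting error only.

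In vertebrate cells DNMT3A and DNMT3B place methyl groups on unmethylated CpGs, and DNMT1, brought to newly replicated DNA by UHRF1, copies the pattern to the new strand. TET enzymes oxidise 5-methylcytosine as a step towards its removal, MBD4 excises thymine at the mismatches left by deamination, and MBD2 recruits the NuRD repressor complex to methylated DNA. The promoters of such genes usually lie in CpG islands, stretches rich in CpG that are mostly free of methylation. MBD-seq enriches sonicated DNA by its binding to a GST-MBD2 protein, which prefers methylated CpGs, so a new peak at a promoter marks a gain of bound fragments there. A promoter without a new peak either stayed below the authors' threshold or was already bound in untreated cells, and the list does not tell these apart.

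New peaks lay at an annotated start site of 9 of the 10 genes, against 45.5% of all 19881 coding genes (95% exact binomial interval 44.8% to 46.2%). The exception was MBD2. At the start site of the canonical transcript alone, 7 of the 10 genes had a peak, against 42.1% of coding genes, and DNMT1 and TET3 joined MBD2 among those without. The peak covered the canonical start site itself at DNMT3B, TET2, UHRF1 and MBD4, or 4 of 10, against 27.1% of coding genes. A CpG island over an annotated start site was present in 9 of the 10 genes and in 14225 of the 19881 coding genes. Among those 14225 the share with a peak was 61.3%. In the gene body, over 1000 bp from every start site, TET1 and TET3 had a peak each, or 2 of 10 genes, against 7.3% of coding genes. No test was applied to these shares, because 10 genes of a single library are not replicates.

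**Figure D1:**
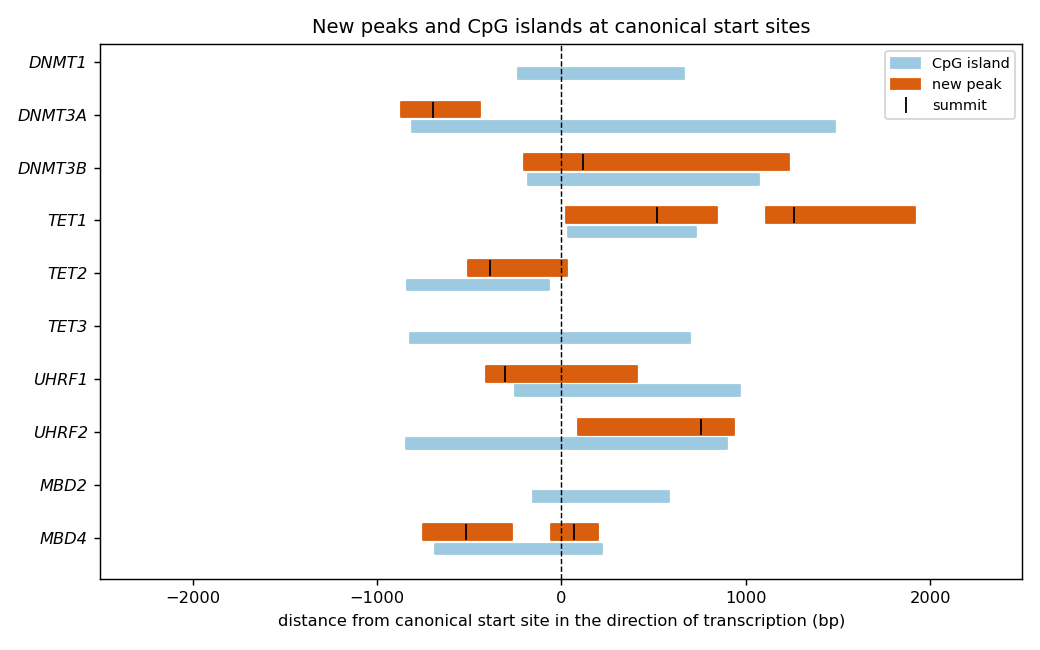
New peaks (orange, with the summit as a black tick) and the CpG island at or nearest to the canonical start site (blue) of each gene, plotted by distance in bp from that start site in the direction of transcription. The islands of DNMT1, TET3 and MBD2 carry no peak, while those of DNMT3B and TET1 are covered over their full length. The peaks of DNMT1, TET3 and DNMT3A that lie farther away are not drawn.

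The 13 peaks had a median fold of 6.66, where the fold is the authors' ratio of fragments at the summit to a local background, against 7.45 for all new peaks with quartiles of 5.44 and 10. They ranged from 3.77 at TET2 to 12.6 at the peak assigned to DNMT1. Of the 13, 6 lay above the median of the whole list, 4 above its upper quartile and 4 below its lower quartile. The number of fragments at each summit was worked out from fold and p-value together, and had a median of 18 in these genes and of 18 in the whole list. Peak width ran from 253 bp, the smallest width in the list, to 1438 bp, with a median of 610 bp against 498 bp. The peaks held 11 to 134 CpGs, with a median of 9.32 CpGs per 100 bp against 10 over all new peaks. The 95% intervals of the folds overlapped in 68 of 78 pairs. They count error in the fragments at the summit only and hold the background rate fixed. Overlap is given as a description, and differences between peaks were not tested. The 10 pairs without overlap set the lowest peaks, at TET2 and UHRF1, against those of DNMT1, TET1, the internal start of TET3 and DNMT3B.

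**Figure D2:**
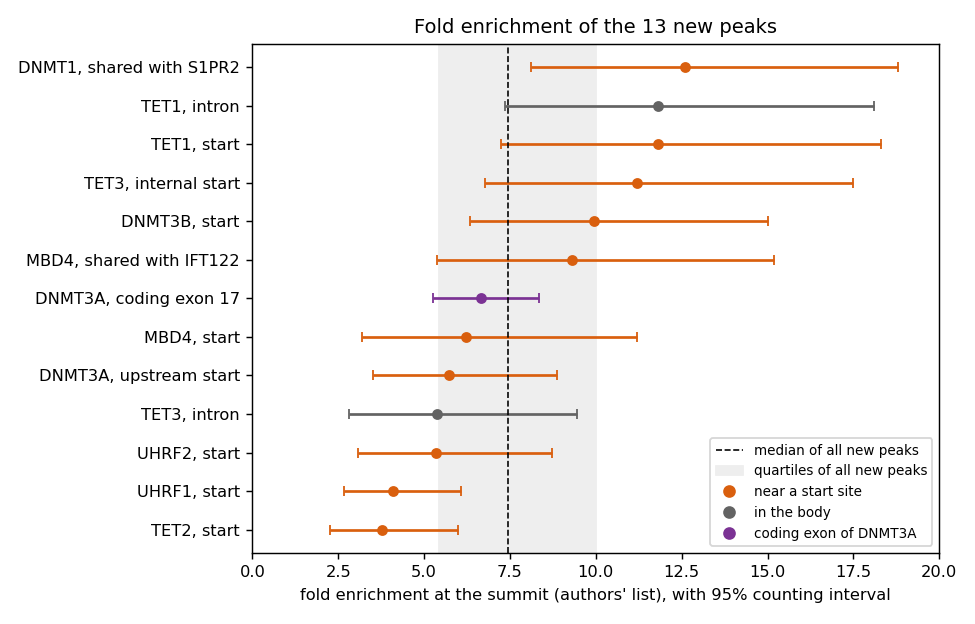
Fold enrichment of each of the 13 new peaks in the authors' list (horizontal axis, no unit) with the 95% counting interval from an exact Poisson interval of the recovered fragments. Points are coloured by position, the dashed line is the median of 7.45 of all new peaks and the grey band spans their quartiles of 5.44 and 10. The peaks at TET2 and UHRF1 sit lowest, at 3.77 and 4.10.

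DNMT3B, a de novo methyltransferase with high expression in embryonic cells, had the broadest peak of the group. It ran from 31349986 to 31351423 on chromosome 20 (hg19), 1438 bp wide with 134 CpGs, which is wider than 96.2% of new peaks. It covered all 1256 bp and all 129 CpGs of the island at the start site. The fold was 9.95 (95% counting interval 6.33 to 15), from 21 fragments over a background rate of 1.21. The summit lay 117 bp downstream of the canonical start site at 31350191, in the untranslated part of exon 1. Of the 17 annotated start sites of DNMT3B, 8 lay within reach of this peak.

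DNMT3A, the methyltransferase whose catalytic part was introduced with the plasmid, had 2 peaks, and neither lay over the canonical start site. Its start region was the richest in CpGs of the group, with 256 within 1000 bp of the canonical start at 25564794 on chromosome 2, more than at 99.6% of coding genes. The island there is 2295 bp long with 319 CpGs. The peak from 25565238 to 25565665 touched only its upstream end, and took in 36 of the 319 CpGs, or 11.3%. Its summit was 695 bp upstream of the canonical start site and 30 bp upstream of the outermost annotated start at 25565459, in sequence outside every annotated transcript. The fold was 5.73 (3.52 to 8.88), from 18 fragments over a rate of 2.32.

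The other DNMT3A peak lay 100318 bp downstream of the canonical start site, from 25464330 to 25464683, with its summit at 25464476 in coding exon 17. It fell under the start rule only through a non-coding transcript with a retained intron that starts at 25464884. At 6.66 (5.26 to 8.33) its fold was near the middle of the list, higher than that of 40.1% of new peaks, but its −log10 q of 33.4 was higher than that of 98.5%. The summit held 75 fragments (95% exact Poisson interval 59.0 to 94.0) over a background rate of 10.4. None of the 12240 other peaks with a background rate up to this value reached as many fragments, their highest number being 71. All 129 peaks with more fragments had a rate of at least 25. The peak was 354 bp wide, held 13 CpGs and overlapped no CpG island. Exon 17 runs from 25464431 to 25464576, is 146 bp long and encodes residues 646 to 694 of the 912 of DNMT3A, which belong to its C-terminal catalytic part. The exon is shown on the coding strand with its 9 CpGs in capitals, because the peak is centred on it.
DNMT3A coding exon 17, chr2:25464431-25464576 (-): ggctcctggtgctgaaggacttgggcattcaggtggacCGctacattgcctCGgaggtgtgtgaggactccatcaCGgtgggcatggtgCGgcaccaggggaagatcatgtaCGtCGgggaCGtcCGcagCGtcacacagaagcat

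The edges of this peak were compared with the exon, a comparison chosen after the values had been seen. Fragments of 253 bp, the width of the narrowest peak, that start at either edge of the exon and run across it span 25464324 to 25464683. The listed peak began 6 bp inside that span and ended 0 bp from its other end. Among the 12795 new peaks on the assembled chromosomes, 12 had both edges within 10 bp of such a span around a coding exon of a canonical transcript, and 10 of them were at first exons, where peaks at start sites are common. The 2 elsewhere were at DNMT3A exon 17 and at exon 3 of BEST4. Apart from the DNMT3A peak, these 11 peaks had 8 to 20 fragments. The Ab-3A3L plasmid carried coding sequence of the catalytic part of DNMT3A, whose exact ends and species are not given in the sources used here. Reads from such a plasmid and from the chromosomal exon cannot be told apart in the list. None of the other 21 coding exons of DNMT3A overlapped a new peak, including exon 19, also with 9 CpGs, and DNMT3L, the stimulating partner of DNMT3A in the fusion, had no new peak at a start site or in its body.

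DNMT1, the maintenance methyltransferase, had no new peak at its canonical start site at 10305629 on chromosome 19, although an island of 898 bp with 89 CpGs covers it. The nearest new peak was 35143 bp away, from 10340772 to 10342103. It was assigned to DNMT1 through 2 of its 43 annotated start sites, at 10341949 and 10341962. The transcripts that begin there span 55732 and 58197 bp of the gene body of 97945 bp, and stop short of its far end. The same peak covers the start site at 10342007 of S1PR2, a receptor for sphingosine-1-phosphate on the same strand, and the start of the microRNA gene MIR4322. Its fold of 12.6 (8.10 to 18.8) was the highest of the group, from 22 fragments over a rate of 0.825, and it took in 130 of the 148 CpGs of the island there. Which of the transcripts that start at this island are made in these cells was not measured. The summit lay 162 bp downstream of the DNMT1 start at 10341949 and 220 bp downstream of the S1PR2 start, in an intron of both genes. The bases around it are shown on the minus strand, with CpGs in capitals here and below.
summit shared by DNMT1 and S1PR2, chr19:10341737-10341837 (-): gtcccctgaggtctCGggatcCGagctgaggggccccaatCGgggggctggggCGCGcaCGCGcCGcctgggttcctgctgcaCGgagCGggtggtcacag

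UHRF1, which recognises hemimethylated CpGs and guides DNMT1 to them, had a peak of low fold over its canonical start site at 4909513 on chromosome 19. The peak ran from 4909104 to 4909925, with a fold of 4.10 (2.66 to 6.06). Its 23 fragments at the summit were more than at the DNMT3B summit, and the background rate of 4.86 was higher than at 86.2% of new peaks. The summit was 306 bp upstream of the start site, outside the island, which begins at 4909263. UHRF2, a related protein, had a peak from 6413290 to 6414134 on chromosome 9 with a fold of 5.34 (3.08 to 8.72), from 14 fragments over a rate of 1.81. It began 91 bp downstream of the canonical start site at 6413199 and held 54.3% of the 186 CpGs of the island. The sequences at the 2 summits differ in their CpG number, with 4 in the stretch shown for UHRF1 and 8 in that for UHRF2.
UHRF1 summit, chr19:4909157-4909257 (+): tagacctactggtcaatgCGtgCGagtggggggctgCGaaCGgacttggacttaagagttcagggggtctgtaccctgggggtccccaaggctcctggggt
UHRF2 summit, chr9:6413905-6414005 (+): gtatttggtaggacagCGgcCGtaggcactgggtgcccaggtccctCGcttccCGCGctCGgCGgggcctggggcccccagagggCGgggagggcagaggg

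Among the TET genes, which encode the enzymes that start the removal of 5-methylcytosine, each had a different arrangement of peaks. At TET1 a pair of peaks followed the only annotated start site at 70320094 on chromosome 10. The first, from 70320119 to 70320935, had a fold of 11.8 (7.24 to 18.3) from 18 fragments and covered the whole island of 692 bp with 73 CpGs. The next, from 70321204 to 70322010, had a fold of 11.8 (7.34 to 18.1) from 19 fragments, and lay in the following intron outside any island, with 5.82 CpGs per 100 bp. The gap of 268 bp between them held 8 CpGs. The folds of the 2 peaks differed by far less than their counting intervals, although the CpG density was 9.55 per 100 bp in the first peak. Both background rates were low, at 0.611, which is the genome-wide rate, and 0.694. The summits of the pair, both in an intron of TET1, are shown to compare sequence inside and outside the island.
TET1 summit in the island, chr10:70320561-70320661 (+): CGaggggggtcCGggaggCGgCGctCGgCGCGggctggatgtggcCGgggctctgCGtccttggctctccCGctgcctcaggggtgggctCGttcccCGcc
TET1 summit in the intron, chr10:70321304-70321404 (+): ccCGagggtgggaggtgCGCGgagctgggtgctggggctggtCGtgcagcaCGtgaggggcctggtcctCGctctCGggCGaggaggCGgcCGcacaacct

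TET2 had the lowest fold of the group, 3.77 (2.25 to 5.98), in a peak from 106067528 to 106068061 on chromosome 4. The summit held 16 fragments, close to the median of 18 of the list, over a background rate of 3.51 that was higher than at 81.9% of new peaks. The peak covered the canonical start site at 106068033, contained 61 of the 88 CpGs of the neighbouring island and had 12.0 CpGs per 100 bp. All 8 annotated start sites of TET2 lay within its reach. The low folds at TET2 and UHRF1 went with a high background rate and not with few fragments, as the plot of fragments against the background rate shows.

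TET3 had no new peak at its canonical start site at 74212037 on chromosome 2, which lies in an island of 1518 bp with 209 CpGs. With 219 CpGs within 1000 bp, this start region is richer than at 98.1% of coding genes, and among the genes with 170 to 339 CpGs 78.7% had a peak at the canonical start. The peak of TET3 lay 17492 bp downstream, from 74229529 to 74230138, over an internal start site at 74229840 that begins the other annotated coding start of the gene. Its fold was 11.2 (6.77 to 17.5), from 17 fragments over the genome-wide rate, and it took in 56 of the 62 CpGs of the island there. A further peak from 74259463 to 74259924 lay in an intron outside any island, with 11 CpGs and a fold of 5.36 (2.82 to 9.44) from 10 fragments. The 150 bases upstream of the canonical start, which hold 25 CpGs, are shown as a CpG-dense start without a new peak.
TET3 upstream of the canonical start, chr2:74211887-74212036 (+): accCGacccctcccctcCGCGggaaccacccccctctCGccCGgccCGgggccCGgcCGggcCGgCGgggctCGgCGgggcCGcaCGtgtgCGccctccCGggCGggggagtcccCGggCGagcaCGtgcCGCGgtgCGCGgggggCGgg

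MBD4, the glycosylase, shares its promoter with IFT122, a gene of intraflagellar transport on the other strand. A pair of peaks on chromosome 3 lay over the island that holds both starts, and took in 60 of its 84 CpGs. The peak from 129158595 to 129158847 covered the canonical start site of MBD4 at 129158791, with a fold of 6.21 (3.18 to 11.2) from 9 fragments. The peak from 129159057 to 129159539 covered the start site of IFT122 at 129159067, with a fold of 9.31 (5.37 to 15.2) from 14 fragments. Both lay over the genome-wide rate of 0.611, and their intervals overlapped. The gap of 209 bp between them held 21 CpGs, or 10 per 100 bp, close to the density of 9.09 and 8.07 in the peaks. It also held 54 annotated transcript starts of the 2 genes. Of all these new peaks genome-wide, 16.2% had a neighbour less than 500 bp away. The summit on the IFT122 side is shown on the MBD4 strand.
summit on the IFT122 side, chr3:129159258-129159358 (-): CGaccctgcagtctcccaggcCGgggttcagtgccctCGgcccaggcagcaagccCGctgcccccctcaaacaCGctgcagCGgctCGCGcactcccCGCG

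MBD2, whose protein also served in GST-tagged form as the pulldown reagent, was the only gene of the group without a new peak at any of its 5 annotated start sites or in its body of 73064 bp. Its canonical start site at 51751039 on chromosome 18 lies in an island of 734 bp with 111 CpGs. The start region holds 134 CpGs within 1000 bp, more than at 74.5% of coding genes. Among the genes with 126 to 143 CpGs, which include TET2 and DNMT3B, 72.8% had a new peak at a start site. The nearest new peak was 44753 bp from the start, from 51795792 to 51796231, with a fold of 4.97. The 150 bases upstream of the start are shown for comparison with the summits above, and hold 18 CpGs.
MBD2 upstream of the canonical start, chr18:51751040-51751189 (-): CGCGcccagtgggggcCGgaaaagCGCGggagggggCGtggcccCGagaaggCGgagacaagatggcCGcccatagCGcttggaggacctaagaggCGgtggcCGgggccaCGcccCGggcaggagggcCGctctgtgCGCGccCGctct

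The CpG number around the start did not separate the genes with a peak at the canonical start from those without. The median was 142 CpGs within 1000 bp in the 7 genes with a peak, with a range set by MBD4 at 99 and DNMT3A at 256. In DNMT1, MBD2 and TET3, without one, the numbers were 109, 134 and 219. Over all coding genes the share with a peak at a start site rose from 4.81% in genes with 0 to 19 CpGs to 80.4% in those with 170 to 339. All 10 genes fell in the upper part of this order, since the median over coding genes was 96 CpGs. The members' count of 9 is therefore to be read beside the shares of 57.1% to 80.4% in genes with a like number of CpGs.

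The other genes of DNA methylation, listed by role, showed the range around these 10. Of 49 such genes, 29 had a new peak at a start site, or 59.2%, against 45.5% of all coding genes. Of the 43 with an island over a start site 28 had one, against 61.3% of all coding genes with such an island. The numbers per role are small and are given as a description beside these shares. Among writers and their partners 5 of 8 had a peak, with the highest fold at USP7, a deubiquitinase that binds DNMT1 and UHRF1 (14.8, interval 10.2 to 21). PCNA, TRDMT1, CDCA7 and NSD1 had peaks too, while DNMT3L, HELLS and DPPA3 had none. For the supply of the methyl donor it was 3 of 4, led by MAT2A, which makes S-adenosylmethionine, with a fold of 13, followed by MTR and AHCY, with MAT2B the exception. For erasure and repair it was 6 of 8. SMUG1, a uracil glycosylase, had the highest fold of the whole list of genes, 19.0 (13.4 to 26.2) at a start site other than the canonical one. TDG, the thymine glycosylase that removes the products of TET enzymes, had a fold of 10, and IDH1, IDH2, APEX1 and GADD45A also had peaks, unlike XRCC1 and OGT.

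Among the other genes listed here as readers, only ZBTB4 and ZBTB38 had a peak at a start site, with folds of 5.04 and 6.28. That was 2 of 7, against 45.5% of all coding genes. The label does not mean that every protein named binds methylated DNA. MBD1, MBD3, MBD5, MBD6 and ZBTB33 had none. Of the genes listed here as CXXC readers, most of whose proteins bind unmethylated CpGs, it was 2 of 8, against the same 45.5%. They are not all the genes for proteins with a CXXC domain. KDM2B reached a fold of 16.1 and CXXC5 9.43, while CXXC1, CXXC4, KDM2A, FBXL19, KMT2A and KMT2B had no peak. For subunits of NuRD, the complex that MBD2 and MBD3 recruit, it was 9 of 11, with the highest fold of 12.3 at RBBP4. The share was 45.5% of all coding genes and 61.3% of those with an island over a start site. CHD3, CHD4, HDAC2, MTA1, MTA2, MTA3, GATAD2A and GATAD2B also had a peak, HDAC1 and RBBP7 had none. Of the genes for imprint maintenance, ZNF445 (fold 6.83) and TRIM28 had a peak and ZFP57 had none. With 3 to 11 genes per role, neither the differences between roles nor those from all coding genes were tested.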

How the data were processed

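MBD-seq reads of 1 wild type library were, according to the methods, mapped by the authors to hg19 with Bowtie2 under default settings, and MACS2 is among the tools in the submitters' processing notes, without a version. The deposited list gives 12864 new peaks. The authors' fold is a ratio, of summit pileup over background. Each p-value and q-value is deposited as its −log10. The deposited score is 10 times the −log10 q, rounded down, and was not used.

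Genes, start sites and bodies were taken from GENCODE release 44 lifted to GRCh37, the build of hg19, for 19881 coding genes with a canonical transcript on chromosomes 1 to 22, X and Y. CpG islands were rebuilt from the unmasked sequence by the UCSC criteria (over 200 bp, GC of at least 50%, observed/expected CpG ratio over 0.6). An overlap of at least 1 bp was counted.

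The number k of fragments at a summit and the background rate were recovered from the fold, taken as (k + 1)/(rate + 1), and the p-value, taken as a Poisson tail above k. The listed −log10 p was met within 0.000403 in every peak. Intervals of folds hold the rate fixed. A share of genes was given an exact binomial interval. The depth of the library was not in the list, and the median of 18 fragments per summit limits the precision. The recovery of fragments, the island search and the assignment of peaks to start sites were tested on simulated data. No test across genes was run.

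The 10 genes and the list of other genes by role were chosen with earlier results of these data known. Some other genes of these roles are not reported here. All 10 genes are named, with those that share their peaks. Of the other genes, those with and without a peak are named by role, with the fold of the highest. The alternatives covered the distance to start sites, the choice of start sites, the peak threshold and the island criteria. Signal of the other libraries was not analysed here. Computation used samtools 1.23.1, matplotlib 3.10.9, numba 0.67.0, scipy 1.17.1, pandas 2.3.3 and numpy 2.4.6 under Python 3.11.15.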

Additional observations from a re-analysis of the deposited data

How the results depend on the processing

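Of 44 alternatives computed, 33 stayed within 1.5 times the value reported or, for the median fold, within the counting interval of the middle peak. When peaks below the median fold were left out, 5 of the 10 genes had a peak at a start site. So did 5571 coding genes, or 28%, and 16 of the other genes of DNA methylation. The genes lost among the 10 were DNMT3A, TET2, UHRF1 and UHRF2, and MBD4 was kept only through the peak on the IFT122 side. Under the same setting 1 gene had a peak in its body, and 5 of the 6 peaks left overlapped an island. With all peaks kept, 10 of the 13 overlapped an island, against 89.3% of the 12795 new peaks on the assembled chromosomes. With a −log10 q of at least 10 the counts were 5410 coding genes, or 27.2%, 12 other genes and 1 gene with a peak in its body. Of the 10 genes, 6 had a peak at a start site. DNMT3A was kept only through its exon 17 peak and MBD4 only through the peak on the IFT122 side. The values at their other peaks were 8.04 and 6.02. DNMT1 was kept through the peak it shares with S1PR2. A distance of up to 2000 bp left 1 gene with a peak in its body, because the intronic peak of TET1 then counted as near the start. The median fold became 9.31 when only the peak of highest fold was kept for each gene, and 14.7 as fragments over the rate without the added 1. It was 7.76 without the peak over DNMT3A coding exon 17, an alternative chosen after the data had been seen, as were the start sites of coding transcripts only, which left 9 genes with a peak. No paired analysis was possible because each condition has a single library. Depth limits what can be seen at a start site without a peak, where no fragments are listed.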

Other observations

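Of the MBD genes, a grouping chosen after the values had been seen, 1 of 6 had a new peak at a start site. The share was 45.5% of all coding genes and 61.3% of those with an island over a start site, and the difference was not tested. The gene with a peak was MBD4, at the promoter it shares with IFT122. MBD1, MBD2, MBD3, MBD5 and MBD6 had none. Of the 6 genes, 5 have an island over a start site, MBD4 among them, and MBD5 is the one without. ZBTB33, OGT and RBBP7 lie on chromosome X, and all 3 were without a peak. On X, 15.5% of the 504 coding genes with an island over a start site had a new peak, against 63.1% of 13696 on the autosomes. MBD1, MBD3 and MBD6 lie on autosomes and have such an island.

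No peak of the 10 genes held a match to the ISG15 sgRNA with up to 4 mismatches and an NGG PAM, and none did with up to 5 mismatches. Over 12795 new peaks genome-wide, 4 held a match with up to 4 mismatches, or 0.0313%, and 51 with up to 5, or 0.399%. The closest match in a peak of the 10 genes had 8 mismatches, in the peaks of DNMT1, DNMT3B, TET1 and UHRF2. A match of letters is no measure of binding.

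Motifs were searched on both strands of the window from 250 bases before to 50 bases after each canonical start. GGGCGG, the GC box of SP1, occurred in 8 of the 10 genes, all but DNMT1 and TET1, and in 61.4% of all coding promoters. DNMT3B had 7 copies. TTTCGCGC, a letter sequence bound by E2F factors, occurred in DNMT1 and in 0.719% of coding promoters. CCAAT occurred in UHRF1 and MBD4 and in 36.0% of promoters, CACGTG in TET3 and in 8.76%, and TTTGGCGC in none of the 10 and in 0.86%.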
